A study of Mus musculus with 6 samples.

Results

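The genes examined here in the irradiated mouse jejunum mark regenerating epithelium or are transcribed under the co-activator YAP. They are Clu, Anxa1, Anxa3, Ctgf, Cyr61, Ankrd1, Amotl2, Areg, Ereg and Il33. They were chosen by name, and every non-control probe carrying one of these names on the arrays was taken, which gave 11 of 55681 non-control probes. The genes are 10 of 36163 names in the files' gene name column. Anxa1 had 2 probes, called A (A_55_P2092826) and B (A_66_P120567) below, and each other gene had 1. Each of the 11 probes was printed as a single spot, and no member spot was marked as an outlier on any array.

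The tissue came from male C57BL/6J mice. Of these, 3 mice received VND3207, a compound the labels name only by this code, into the stomach at 100 mg/kg. The 3 control mice received an equal volume of vehicle. After 0.5 h both arms were given 9 Gy of radiation, and 6 h later jejunal tissue was collected, so every sample is irradiated tissue and the change caused by radiation itself was not analysed here. One array with a single colour channel was hybridised per mouse, and the labels do not say which part of the jejunal wall was taken.

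YAP and its relative TAZ are held in the cytoplasm by the kinases of the Hippo pathway. When released they enter the nucleus and, bound to the TEAD transcription factors, switch on genes such as Ctgf, Cyr61, Ankrd1 and Amotl2. In the mouse intestine, injury brings crypt cells into a transient state marked by Clu, annexins and other genes of the fetal gut, and YAP is needed for that regeneration. Areg and Ereg encode secreted ligands of the epidermal growth factor (EGF) receptor, and Il33 encodes a nuclear cytokine released by damaged cells.

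The letters before the start sites were read for some of these genes. RefSeq promoter windows on GRCm38.p6 were matched for 6 of the 10 genes, with Cyr61 listed there under its current symbol Ccn1, in 7 windows since Il33 has 2 start sites. The 250 bases before each start were searched on both strands for GGAATG, the core of the TEAD motif, and for TGACGTCA, the cyclic AMP response element (CRE). The TEAD core was present in 5 of the 6 genes, all but Areg, whereas 12.6% of 32851 mouse promoter windows of the same length held it. The CRE was present in Areg alone among the 6 genes, against 1.55% of all windows. One more motif, TGANTCA of the AP-1 factors, was in 0 of the 6 and in 6.75% of all windows. Clu, Anxa3, Ctgf and Ereg had no matched window and were not searched. Cyr61, Ankrd1 and Amotl2 are on the list as known TEAD targets, so the TEAD count is not independent of how the genes were chosen. A match is a stretch of letters and was not tested for binding. The windows of 3 TEAD targets, of Anxa1 and of Areg follow, 5′ to 3′ on the gene's strand, with the matches in capitals. They are chr3:145649986-145650235 on the minus strand for Cyr61, chr19:36119845-36120094 minus for Ankrd1, chr9:102717554-102717803 plus for Amotl2, chr19:20390672-20390921 minus for Anxa1 and chr5:91139349-91139598 plus for Areg.
Cyr61: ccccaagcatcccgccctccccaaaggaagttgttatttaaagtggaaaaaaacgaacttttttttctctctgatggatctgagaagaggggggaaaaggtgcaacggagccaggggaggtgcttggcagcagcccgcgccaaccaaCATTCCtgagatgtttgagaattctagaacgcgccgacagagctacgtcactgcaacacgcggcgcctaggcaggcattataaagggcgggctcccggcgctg
Ankrd1: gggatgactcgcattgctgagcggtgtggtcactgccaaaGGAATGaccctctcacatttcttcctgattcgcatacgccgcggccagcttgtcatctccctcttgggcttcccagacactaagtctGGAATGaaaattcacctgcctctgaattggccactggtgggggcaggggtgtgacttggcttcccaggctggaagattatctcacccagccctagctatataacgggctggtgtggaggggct
Amotl2: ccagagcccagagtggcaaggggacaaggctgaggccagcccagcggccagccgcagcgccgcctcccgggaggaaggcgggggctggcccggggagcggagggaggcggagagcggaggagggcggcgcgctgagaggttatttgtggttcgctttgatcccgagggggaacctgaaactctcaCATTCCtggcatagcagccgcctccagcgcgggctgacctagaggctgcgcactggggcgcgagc
Anxa1: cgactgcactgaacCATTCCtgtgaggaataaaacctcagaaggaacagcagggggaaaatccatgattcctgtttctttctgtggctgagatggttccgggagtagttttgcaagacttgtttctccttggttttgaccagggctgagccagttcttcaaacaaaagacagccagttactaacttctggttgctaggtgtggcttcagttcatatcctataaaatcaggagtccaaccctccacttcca
Areg: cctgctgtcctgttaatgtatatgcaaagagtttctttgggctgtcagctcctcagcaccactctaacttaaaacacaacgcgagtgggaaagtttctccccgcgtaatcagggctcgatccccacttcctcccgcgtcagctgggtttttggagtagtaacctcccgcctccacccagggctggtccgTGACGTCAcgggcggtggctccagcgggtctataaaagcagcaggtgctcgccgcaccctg
The TEAD core began 103 bases before the start in Cyr61, 210 and 123 bases before it in Ankrd1, 65 in Amotl2 and 236 in Anxa1, and the CRE began 61 bases before the start of Areg.

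The arrays read these genes through probes of 60 bases, and the first 30 bases are given for the 4 probes with the widest spread between mice among those well above background. Positions are those of the mm9 build in the files, which name the gene but give no exon or UTR. Clu was read at chr14:66600325-66600382 on the plus strand, Anxa1 at chr19:20447938-20447997 (probe A) and chr19:20449722-20449781 (probe B) on the minus strand, and Areg at chr5:91570090-91570149 on the plus strand.
Clu probe: ctcgggaagaactgattcccccacgcaact
Anxa1 probe A: gccccataagcaagtcactttggtaccatt
Anxa1 probe B: tgacatgaatgaaatcaaagtattttacca
Areg probe: ctcagaggagtatgataatgaaccacaaat
The remaining probes lay on chromosome 5 (Anxa3 and Ereg), 10 (Ctgf), 3 (Cyr61), 19 (Ankrd1 and Il33) and 9 (Amotl2).

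Levels below are log2 signals relative to the 75th percentile of the array's non-control spots, so that 0 is the brightness of that percentile. Differences are VND3207 minus vehicle on this log2 scale, tested with limma over 36098 probes with Benjamini-Hochberg adjustment and a threshold of 0.05. Between 58.8% and 61.4% of spots were well above background on the VND3207 arrays and 66.7% to 70.0% on the vehicle arrays. The VND3207 arrays were all on slide 2 and scan 2 and the vehicle arrays all on slide 1 and scan 1, and for this reason slide or scan and treatment cannot be told apart. All 12 epithelial markers checked, such as Epcam, Vil1 and Cdx2, were well above background on every array. Their summed signal, in multiples of the 75th percentile, ran from 1463 to 1507 in VND3207 mice and from 1722 to 1910 in vehicle mice. Replicates are single mice, and their number limits the precision of every value.

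None of the member probes differed between VND3207 and vehicle mice past the threshold. Of the 11 probes, 10, covering 9 genes, were well above background on all 6 arrays and were tested. Of these, 9 had a higher mean in VND3207 mice, with a median difference of 0.17, beside -0.06 over all probes tested. Over the 30188 probes that were, like these members, well above background on all 6 arrays, the median was -0.02. A mean above 0 was found for 41.9% of all probes tested. The smallest adjusted p among members was 0.343, for Ereg (limma), and 0 of 10 had an unadjusted p under 0.05, beside 27.2% of all probes. In the same fit 0.925% of all probes were called higher and 14.6% lower, or 334 and 5259 probes, so 5.97% of the calls were higher. With quantile normalization 934 probes were called higher and 3238 lower, which makes 22.4% of calls higher, and a median over all probes 0.11 above the one without it. Beside that, the members' median was 0.22 and that of all probes 0.05. The 0 of 10 members called higher is near the background share, and in bulk tissue fewer cells of a type cannot be told apart from less RNA per cell.

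**Figure D1:**
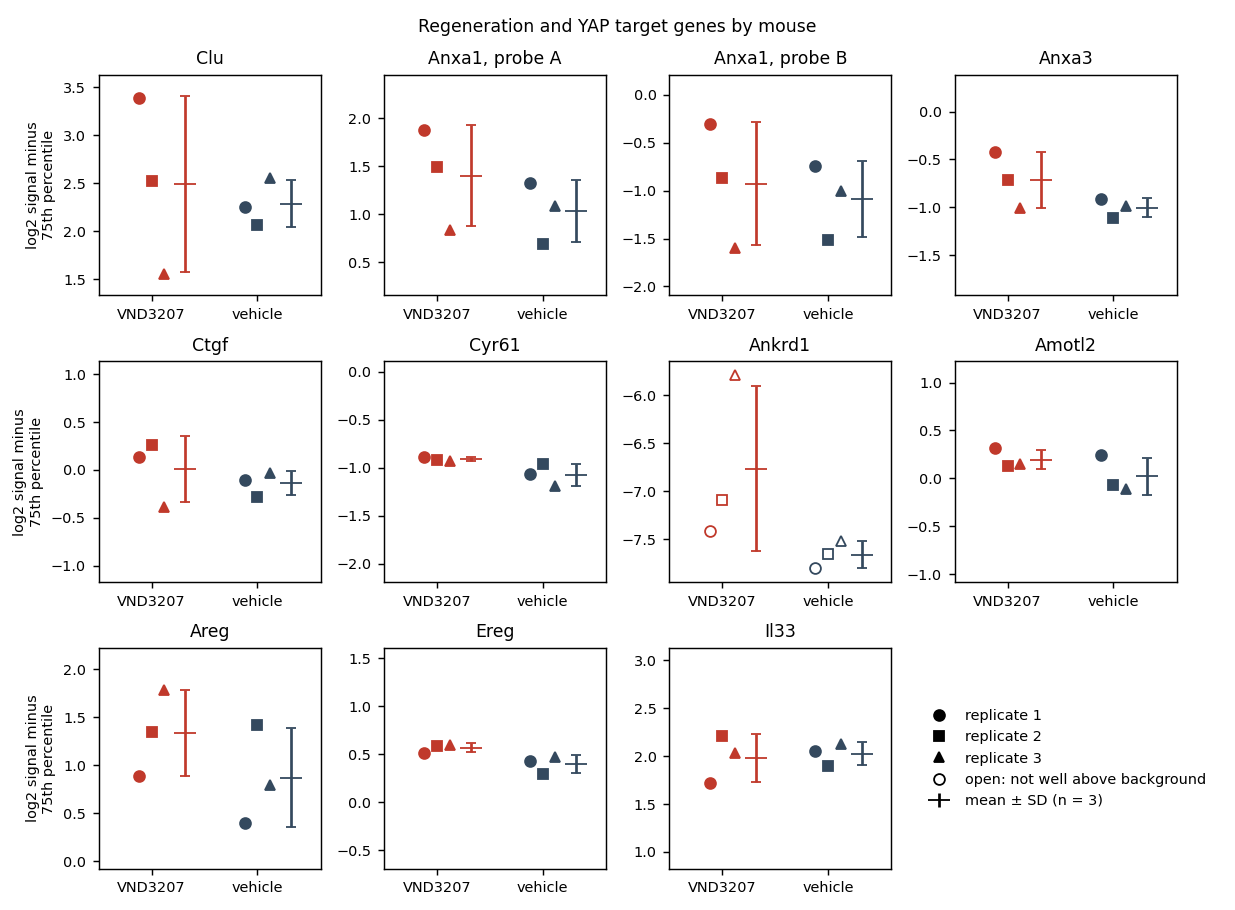
Log2 signal minus the array's 75th percentile for each of the 11 probes in each mouse, VND3207 on the left and vehicle on the right of each panel, with the mean and SD of 3 mice beside the points. The groups overlap in 8 of the 10 measured probes, and Ankrd1, drawn open, was not well above background in any mouse.

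Among the matricellular genes under YAP and TEAD, Cyr61 showed the tightest values. Cyr61, which encodes a secreted protein of the CCN family that binds integrins, was at -0.89, -0.92 and -0.93 in VND3207 mice, against -1.07, -0.96 and -1.19 in vehicle mice. Every VND3207 mouse was above every vehicle mouse, though the lowest VND3207 and the highest vehicle value nearly met. The difference was 0.16 ± 0.10 (SE, n = 3 and 3, limma adjusted p = 0.384), with a 95% interval from 0.942- to 1.33-fold. Groups without overlap in the higher direction were found for 9.41% of all probes and for 2 of the 10 members, Cyr61 and Ereg. In the lower direction they were found for 24.9% of all probes and 0 members, and in both directions together for 34.3%. The SD among VND3207 mice was 0.022 for Cyr61, smaller than for all but 1.57% of the probes.

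Ctgf, the CCN family relative of Cyr61 known for its part in wound repair and fibrosis, was at 0.14, 0.26 and -0.38 in VND3207 mice, against -0.10, -0.28 and -0.03 in vehicle mice. Replicate 3 of the VND3207 mice was the lowest of all 6 and the other VND3207 mice were the highest. The difference was 0.14 ± 0.19 (SE, limma adjusted p = 0.708), with an interval from 0.798- to 1.52-fold. It was 0.012 without VND3207 replicate 2, 0.075 without replicate 1 and 0.34 without replicate 3, and 0.069 without vehicle replicate 2. The pair of CCN genes shared the sign of the difference but not the order of the mice.

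Amotl2 encodes a scaffold of the angiomotin family that binds YAP and is itself a YAP target. It was at 0.31, 0.13 and 0.15 in VND3207 mice, against 0.24, -0.07 and -0.11 in vehicle mice. Vehicle replicate 1 lay inside the VND3207 range while the other vehicle mice lay below it. The difference was 0.18 ± 0.13 (SE, limma adjusted p = 0.479), with an interval from 0.901- to 1.41-fold.

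Ankrd1, a YAP target in many cell types that is best known from heart and skeletal muscle, was not well above background on any of the 6 arrays. Its values were -7.41, -7.10 and -5.79 in VND3207 mice, against -7.81, -7.66 and -7.52 in vehicle mice. Although these do not overlap, both groups lie below what the arrays call a measured signal, so no fold and no test are given. The processed signal was 4.51, 4.95 and 12.5 intensity units in VND3207 mice and 3.90, 3.41 and 4.57 in vehicle mice, and its promoter is the one printed above with 2 TEAD cores.

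Of the genes of the injured epithelial state, Clu and Anxa1 on both probes had a larger SD in each group than Ctgf, Cyr61 and Amotl2, whereas Anxa3 did not. Clu, the clusterin gene whose expression marks the revival stem cells of the irradiated mouse intestine, was at 3.39, 2.53 and 1.56 in VND3207 mice, against 2.25, 2.07 and 2.55 in vehicle mice. VND3207 replicate 1 was the highest and replicate 3 the lowest of the 6 mice, a range of 1.84 within the group, beside 0.49 within the vehicle group. The SD of 0.92 among VND3207 mice was larger than that of 96.9% of the probes, and among vehicle mice the SD of 0.25 was larger than that of 66.1%. The difference of 0.20 ± 0.45 (SE, limma adjusted p = 0.826) had an interval from 0.538- to 2.47-fold. Without VND3207 replicate 1 it was -0.25 and without replicate 3 it was 0.67, neither past the threshold.

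Anxa1 encodes a phospholipid-binding annexin that dampens inflammation through formyl peptide receptors. Probe A was at 1.88, 1.49 and 0.84 in VND3207 mice, against 1.32, 0.68 and 1.08 in vehicle mice. Probe B was at -0.31, -0.87 and -1.60 in VND3207 mice, against -0.74, -1.52 and -1.01 in vehicle mice. Both probes placed VND3207 replicate 1 highest and put VND3207 replicate 3 and vehicle replicate 2 at the bottom, although they disagreed on which of these was the lowest. The difference was 0.37 ± 0.30 on probe A (SE, limma adjusted p = 0.503) and 0.16 ± 0.36 on probe B (adjusted p = 0.828). The intervals ran from 0.781- to 2.15-fold and from 0.606- to 2.07-fold. Without VND3207 replicate 1 the probes were at 0.13 and -0.15, and without replicate 3 at 0.65 and 0.50.

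Anxa3, a further annexin gene, was at -0.42, -0.72 and -1.01 in VND3207 mice, against -0.91, -1.11 and -0.98 in vehicle mice. VND3207 replicates 1 and 2 were above all vehicle mice, and replicate 3 was between the vehicle mice. The difference was 0.29 ± 0.17 (SE, limma adjusted p = 0.35), with an interval from 0.919- to 1.62-fold. It was 0.14 without VND3207 replicate 1 and 0.43 without replicate 3. The order of the 6 mice was the same for Anxa3 as for Anxa1 probe A.

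**Figure D2:**
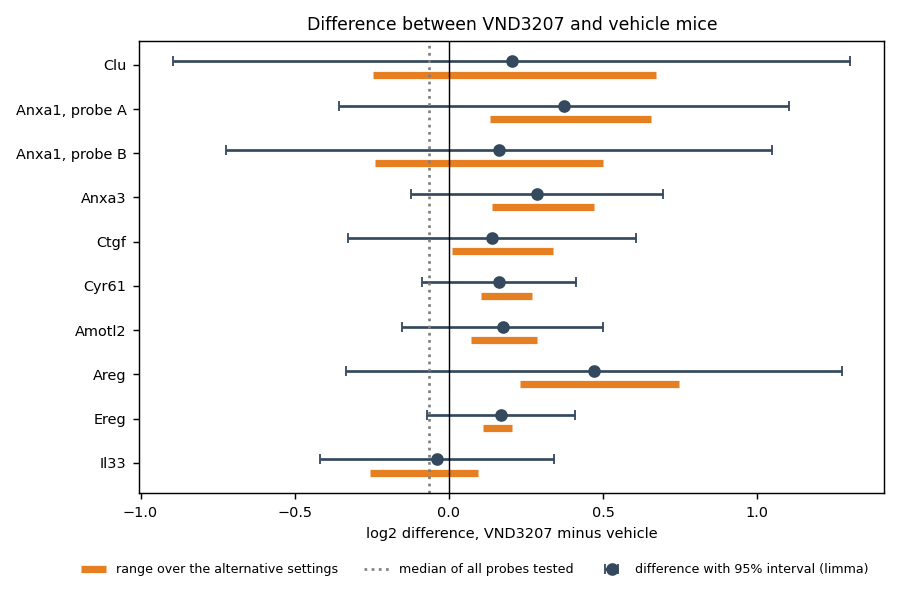
Log2 difference VND3207 minus vehicle for the 10 tested member probes (points) with the 95% interval from limma (n = 3 and 3), the range over the alternative settings below each point, and a dotted line at the median of all probes tested. Every interval includes 0, and only Clu, Anxa1 probe B and Il33 change sign among the settings.

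Of the EGF receptor ligands, Areg had the larger difference and the larger error. Areg encodes amphiregulin, a ligand made by epithelium and immune cells after tissue damage. It was at 0.89, 1.35 and 1.79 in VND3207 mice, against 0.39, 1.42 and 0.80 in vehicle mice. VND3207 replicate 3 was the highest of the 6 mice, the opposite of its place for Clu and Anxa1 probe B, and vehicle replicate 2 came second. The difference was 0.47 ± 0.33 (SE, limma adjusted p = 0.439), with an interval from 0.793- to 2.42-fold. Leaving out single arrays took it to between 0.23, without vehicle replicate 1, and 0.74, without vehicle replicate 2, and to 0.25 without VND3207 replicate 3 and 0.70 without VND3207 replicate 1. The SD of 0.45 among VND3207 mice and of 0.52 among vehicle mice was larger than that of 85.7% and 91.0% of the probes.

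Ereg, which encodes epiregulin, lies beside Areg on chromosome 5. It was at 0.51, 0.59 and 0.60 in VND3207 mice, against 0.43, 0.29 and 0.47 in vehicle mice. All VND3207 mice were above all vehicle mice, by 0.17 on average ± 0.10 (SE, limma adjusted p = 0.343), with an interval from 0.953- to 1.33-fold. Unlike Areg, Ereg varied little between mice, with an SD of 0.05 among VND3207 mice and 0.09 among vehicle mice.

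Il33, the interleukin-33 gene, was the one tested member with a lower mean in VND3207 mice. It was at 1.71, 2.21 and 2.03 in VND3207 mice, against 2.05, 1.89 and 2.13 in vehicle mice. The vehicle values lie inside the range of the VND3207 values. The difference was -0.04 ± 0.16 (SE, limma adjusted p = 0.907), with an interval from 0.749- to 1.27-fold.

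Markers of tissue outside the epithelium also differed between mice. The 7 adipocyte markers had a median score, taken per mouse relative to the mean of the 6 arrays, of 3.46, 0.50 and -1.80 in VND3207 replicates 1 to 3, against 1.03, -2.15 and -0.73 in vehicle mice. Their summed signal was 34.4 to 131.8 multiples of the 75th percentile in VND3207 mice and 27.9 to 54.1 in vehicle mice. From 5 to 7 of the 7 were well above background in VND3207 mice and 6 to 7 in vehicle mice, and none was below it on all arrays. As for Clu, Anxa1 and Anxa3, VND3207 replicate 1 was the highest, and on the median score VND3207 replicate 3 and vehicle replicate 2 were the lowest 2. On the summed signal vehicle replicate 3 was the lowest at 27.9, followed by VND3207 replicate 3 at 34.4 and vehicle replicate 2 at 35.2. In these mice a single marker, Cidec, gave most of the sum, at log2 levels of 4.29, 4.87 and 4.98 in the same order. The order on the summed signal therefore rests mainly on that gene. On the median score the 9 endothelial markers had the same highest mouse and the same lowest 2. They scored 0.23, -0.07 and -0.09 in VND3207 replicates 1 to 3, against 0.04, -0.27 and 0.12 in vehicle mice. This order of the mice was thus not particular to adipocyte markers. Areg had its 2 highest values in VND3207 replicate 3 and vehicle replicate 2.

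VND3207 replicate 3 also held the least signal of muscle and serosa. The 10 smooth muscle markers scored -1.69 in that mouse, beside 0.32 to 0.43 in the other VND3207 mice and 0.15 to 0.51 in vehicle mice, and the 6 mesothelial markers scored -1.63 there, beside 0.65 and 0.79 in the other VND3207 mice and -0.14 to 0.35 in vehicle mice. The summed signal was 65.2 to 279.9 for smooth muscle and 0.591 to 3.52 for mesothelium in VND3207 mice, against 230.4 to 291.1 and 1.31 to 2.72 in vehicle mice. All 10 muscle markers were well above background in every mouse, while 3 to 5 of the mesothelial ones were in VND3207 mice and 6 of 6 in vehicle mice. The part of these tissues in the member values was not tested. Without VND3207 replicate 3 the members' median difference was 0.29 and the smallest adjusted p 0.127, for Anxa3 (limma). Leaving out VND3207 replicate 1 gave a median of 0.13, with 8 of 10 probes above 0.

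**Figure D3:**
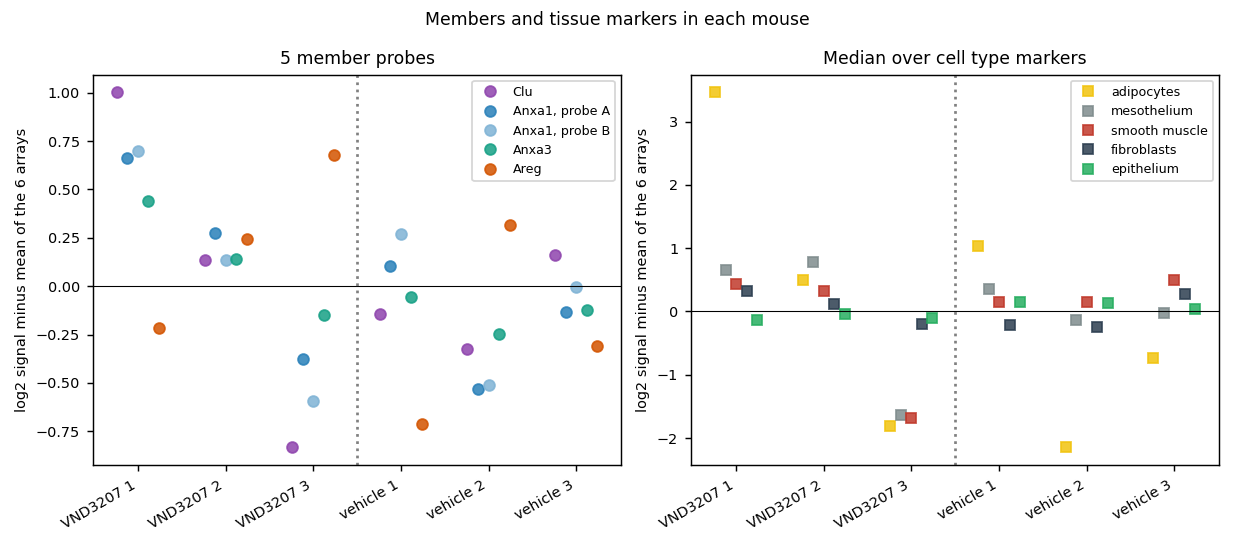
Log2 signal minus the mean of the 6 arrays in each mouse for 5 member probes (left) and the median over the markers of 5 cell types (right), with VND3207 mice left of the dotted line and vehicle mice right of it. Clu, Anxa1 and Anxa3 are highest in VND3207 replicate 1, as is the adipocyte score of 3.46, while Areg is highest in VND3207 replicate 3, where the smooth muscle score is -1.69.

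Related genes were read from lists chosen with earlier results of these data known, each gene by its tested probe with the highest mean. Of 17 further YAP and TEAD targets tested, 1 fell and 0 rose, with a median difference of 0.18 and 12 of 17 above 0. The gene that fell was Ptpn14, which encodes a phosphatase that binds and restrains YAP. It was at -3.08, -3.48 and -4.14 in VND3207 mice, against -1.96, -1.82 and -1.91 in vehicle mice, so the groups were far apart, by -1.67 ± 0.26 (SE, limma adjusted p = 0.0096). Read against the 14.6% of all probes called lower, 1 of 17 is no excess. None of 22 Hippo pathway and TEAD genes passed, with a median of 0.14 and 16 above 0. Tead2, a TEAD family factor, had the smallest adjusted p of that list at 0.0832, with a difference of -0.43 ± 0.13 (SE, limma). Yap1 itself, named after its values were seen, was at 3.69, 3.66 and 3.70 in VND3207 mice, against 3.78, 3.72 and 3.64 in vehicle mice, a difference of -0.03 ± 0.09 (SE, limma adjusted p = 0.884).

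In the EGF family, 1 of 16 ligands, receptors and processing genes rose and 0 fell, with a median difference of 0.05 and 11 above 0, beside 0.925% of all probes called higher, 14.6% called lower and 41.9% above 0. Epgn, which encodes the EGF receptor ligand epigen, was at -4.22, -4.12 and -4.56 in VND3207 mice, against -4.75, -5.20 and -5.42 in vehicle mice. The lowest VND3207 mouse was above the highest vehicle mouse, though the probe was dim, being well above background on 3 of 3 VND3207 and 2 of 3 vehicle arrays. The difference was 0.83 ± 0.21 (SE, limma adjusted p = 0.0476), and it passed in 8 of the 16 alternative settings in which it could be tested, with an adjusted p from 0.0188 to 0.15 over all settings. It was not past the threshold without VND3207 replicate 1 or 2 or without vehicle replicate 2 or 3.

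Relatives of the CCN and annexin genes gave 0 of 14 past the threshold, although 13 of 14 were above 0 and their median of 0.23 was the highest of the 6 lists. Anxa9 had the smallest adjusted p, with a difference of 0.35 ± 0.12 (SE, limma adjusted p = 0.112). Among 8 genes of IL-33 reception and processing, 0 passed and 7 were above 0, with a median of 0.16, and Irak4, a kinase below the receptors of this family, came closest at 0.22 ± 0.10 (SE, limma adjusted p = 0.254).

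Of 12 tested genes of fetal-like and regenerating epithelium, 2 rose and 1 fell, with a median difference of 0.17 and 9 above 0. Over all probes 0.925% were called higher, 14.6% lower and 41.9% were above 0. Ly6a, the gene of Sca-1, was at 3.51, 3.53 and 3.17 in VND3207 mice, against 2.72, 2.52 and 2.69 in vehicle mice, and its relative Ly6c1 at 4.72, 4.68 and 4.49, against 4.18, 3.90 and 4.18. Ly6c1 had 1 other tested probe, whose values are not given here. Neither gene's groups overlapped, as was so in the higher direction for 9.41% of all probes, with limma adjusted p = 0.0152 and 0.0381, and the calls held in 12 and 6 of 17 alternative settings. With arrays corrected for trends in spot position, brightness and probe GC content, Ly6a had an adjusted p of 0.112 and Ly6c1 of 0.0547 (limma). Leaving out single arrays took the count of genes that rose to between 0 and 3, with 0 without VND3207 replicate 1 or 2 or vehicle replicate 2, 1 without vehicle replicate 1 or 3 and 3 without VND3207 replicate 3. Basp1, which encodes a membrane-bound signalling protein, was at -1.36, -1.68 and -1.37 in VND3207 mice, against -0.29, 0.17 and -0.02 in vehicle mice. The log2 difference was -1.42 ± 0.16 (SE, limma adjusted p = 0.0036), a fall that, like that of Ptpn14, passed in 17 of 17 alternative settings.

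**Figure D4:**
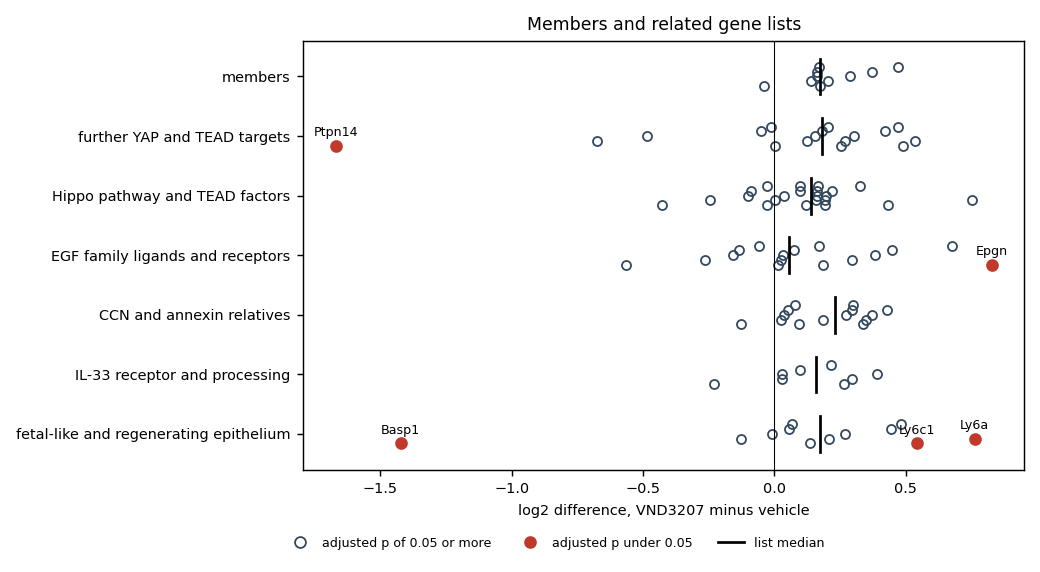
Log2 difference VND3207 minus vehicle for each tested member probe and each gene of the 6 related lists, with filled points for an adjusted p under 0.05 (limma) and a bar at each list's median. All 10 member points are open, and the filled points are Ptpn14, Epgn, Basp1, Ly6a and Ly6c1.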

How the data were processed

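Total RNA of the jejunum of 6 mice was measured on 1-colour (Cy3) arrays. Per the submitters' processing notes, Agilent Feature Extraction (version 10.7.1.1) wrote the authors' scanner files. From them the processed signal was taken, a deposited intensity that has been background-subtracted and detrended per the file headers and is not yet scaled across arrays. An alternative used the deposited value table, which holds log2 values with a median of 6.05 in all 6 columns. How it was made is not given in the sources used here.

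Control and outlier spots were left out, log2 signals were set against the array's 75th percentile and spots sharing a probe were averaged. The filter asked for a signal well above background on 3 or more of the 6 arrays, of either group, and kept 36098 of 55681 probes. Probes were compared with limma 3.58.1 in R 4.3.3 (lmFit, then eBayes) in a model with treatment alone, two-sided. Errors given as SE are limma's moderated standard errors. The fit was tested on simulated data. Alternatives were other normalizations, background corrections, filters, variance models, array weights, units and thresholds, a block for the replicate number, single arrays left out, and a correction of each array for smooth trends in the spot's place, its brightness and the GC content of the probe (mgcv 1.9.3).

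Members and gene lists were chosen with earlier results of these data known. Beside the members, up to 4 genes past the threshold were named per related list, or the 1 with the smallest adjusted p.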

Additional observations from a re-analysis of the deposited data

How the results depend on the processing

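No member probe passed under any of the 18 alternative settings; the smallest adjusted p was 0.127. With the replicate block it was 0.329, and the members' median difference stayed at 0.17. Of the 217 member values and counts recomputed, 210 kept their direction and side of the threshold and 7 changed sign. Anxa1 probe B was at -0.24 after the trend correction and at -0.15 to 0.50 with single arrays left out. Clu was at -0.25 to 0.67 with single arrays left out. The lowest value of Il33 over all settings was -0.26. Il33 was at 0.0067 with array weights and at -0.15 to 0.096 with single arrays left out. In the same way Ctgf ran from 0.012 to 0.34, Anxa3 from 0.14 to 0.43, Areg from 0.23 to 0.74, Amotl2 from 0.11 to 0.29, Cyr61 from 0.10 to 0.22 and Anxa1 probe A from 0.13 to 0.65.

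The count of all probes called higher, 334, was 934 with quantile normalization, 919 with the deposited table, 1163 after the trend correction, 663 without a filter on dim probes, 520 with array weights, 143 with the replicate block and 50 at an adjusted p under 0.01. It was 126 to 287 with single arrays left out. The count called lower, 5259, was in the same way 3238, 3176, 2188 and, with the replicate block, 3410. It was 2832 with normexp, 2923 with probes well above background on all 6 arrays, 2532 at an adjusted p under 0.01 and 2969 to 5066 with single arrays left out.

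Among CCN and annexin relatives 1 gene rose with quantile normalization, the deposited table or the trend correction. In the EGF family list 2 rose with quantile normalization or the deposited table. There 0 rose with an intensity trend in eBayes, with or without its robust form, without a filter or with the replicate block, and 0 to 1 with single arrays left out. With probes well above background on all 6 arrays 0 rose too, but Epgn did not meet that filter and was not tested there. In the fetal-like list 1 rose with quantile normalization, the deposited table, normexp or no filter, 0 with the trend correction or the replicate block, and 0 to 3 with single arrays left out. The cause of these changes was not tested. A block for slide or scan could not be fitted, since each holds 1 group only. An exact permutation of 3 against 3 mice, two-sided, cannot give a p below 0.1. Same-numbered mice had deviations from their group means that correlated at 0.13, -0.11 and -0.05, and not every mouse correlated best with its own number. The labels state no pairing. With 3 mice per group these correlations cannot decide whether the numbers pair the mice.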

Other observations

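Other cell type markers gave these counts in the same fit (limma, adjusted p under 0.05). Each count stands beside 0.925% of all probes called higher and 14.6% called lower. Of 12 epithelial markers 3 fell, the keratin genes Krt8 and Krt20 and the brush border gene Vil1. Of 10 fibroblast markers 1 rose, the receptor gene Pdgfrb, and of 9 endothelial markers 2 fell, Pecam1 and Kdr. Above 0 were 3 of the 12 epithelial, 7 of the 10 fibroblast and 6 of the 9 endothelial markers. The endothelial median was 0.0018. Of 9 markers of enteric neurons and glia 2 fell, Gfap and Sox10, and 3 were above 0. The Gfap probe was dim, with means of -4.82 in VND3207 and -3.48 in vehicle mice. It was well above background on 2 of 3 VND3207 and 3 of 3 vehicle arrays, which limits this call. Gfap had 1 other tested probe, whose values are not given here. Of 10 immune markers 1 fell, Itgam, while 7 were above 0, with a median of 0.059. Of 5 pancreatic acinar markers 1 was called lower, Cpa1, and 0 were above 0. The Cpa1 probe was well above background on 0 of 3 VND3207 and 3 of 3 vehicle arrays. It met the filter only through the group where it was high, so its call is no support for a difference. The genes named here were chosen after their values were seen. None of 10 smooth muscle, 6 mesothelial and 7 adipocyte markers passed.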
